A study of Mus musculus with 3 samples.

Results

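DNA replication and S phase genes were examined as a group of 38 named genes, each found by its symbol in the deposited gene table. All 38 were among the 17796 genes listed, and all 38 had a mean of at least 1 CPM over the libraries, as did 13750 genes in all. CPM are reads per gene scaled to a total of 1000000 in each library. The cells were T cells from the spleen of C57BL/6 mice, cultured for 3 days on antibodies against CD3 (2 ug/ml) and CD28 (5 ug/ml) with interleukin 2 at 100 IU/ml, and their polyadenylated RNA was sequenced. The library labelled Young came from mice aged 2 months and is labelled as vehicle. The library labelled Old came from mice stated as 24 months old that received vehicle 3 times a week for 2 months, and the library labelled Old + Fumarate from mice of that stated age that received fumarate at 10 mg/kg on the same schedule. Cells of all 3 groups were activated in the same way, so no resting cells stand for comparison. Each group had 1 library, and whether several mice were pooled is not stated in the labels, and the differences below therefore carry neither a replicate check nor a p-value.

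Resting T cells hardly divide, and signals through the T cell receptor, CD28 and the interleukin 2 receptor drive them into repeated rounds of division. In G1 phase the MCM2-7 helicase is loaded onto replication origins (licensing). Cyclin E with its kinase and the kinase Dbf4-Cdc7 then turn it into an active helicase together with Cdc45 and GINS (firing), after which polymerases, the sliding clamp PCNA and its loader RFC copy the strands. Many of these genes are transcribed as cells enter S phase under E2F transcription factors, which retinoblastoma family proteins hold back. In RNA from a whole culture, fewer cells in S phase and less RNA of these genes per cell cannot be told apart.

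Replication genes were lower in the Old than in the Young library for 36 of 38 genes, and their summed level in Old was 0.735 of that in Young. By this sum the Old + Fumarate library stood between those libraries, at 0.842 of Young. Not every member did so, though some departed by less than counting error. Mcm2, Pola1, Rfc2, Rfc4 and E2f1 were lowest in Old + Fumarate, and Cdc6, Gins3, Rfc3, Prim1, Rrm2, Ccne1 and Ccne2 highest. Together the 38 genes took 0.660% of CPM in the Young, 0.485% in the Old and 0.556% in the Old + Fumarate library. Estimated depth was 41000000, 17300000 and 13900000 reads, so the 95% counting interval of a member's log2 ratio had a median half-width of 0.0912 to 0.115, depending on the comparison. These intervals cover counting error alone, without the spread between mice or cultures.

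**Figure D1:**
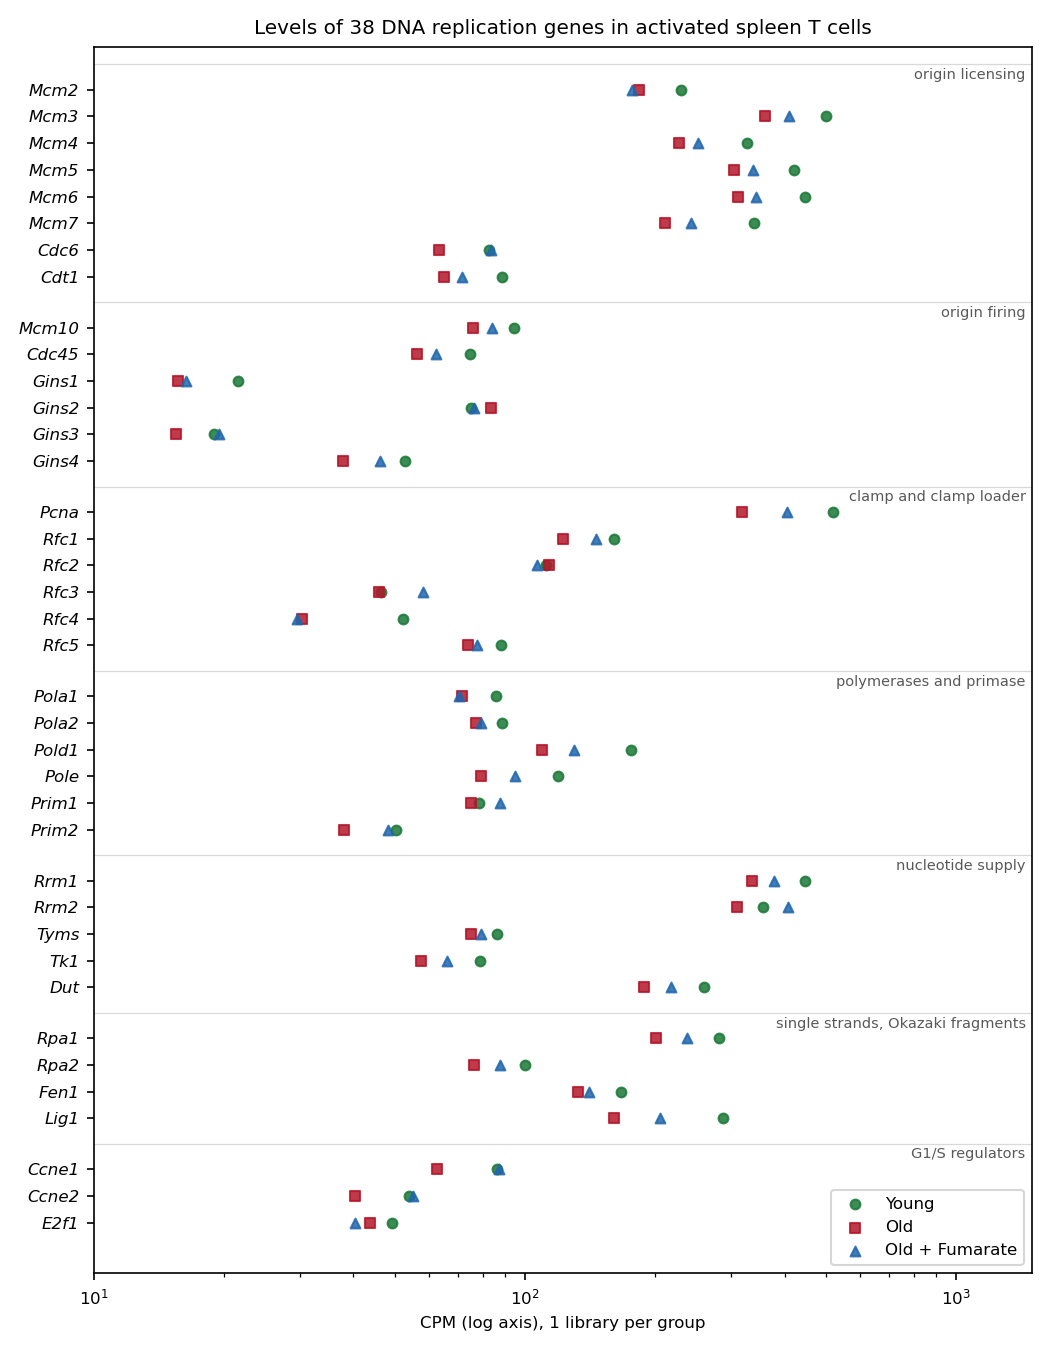
Level of each of the 38 replication genes in the 3 libraries, in CPM on a log axis, ordered by role, with 1 point per library (circle Young, square Old, triangle Old + Fumarate). The Old points lie left of the Young points for 36 of 38 genes, and levels reach from 15.5 CPM (Gins3, Old) to 518 CPM (Pcna, Young).

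Library makeup differed as well, and these values stand beside every ratio below. The Old library carried RNA of other blood lineages: 12 erythroid and platelet markers summed to 12.1 CPM in the Young, 1353 CPM in the Old and 172 CPM in the Old + Fumarate library, and the 11 with a mean of at least 1 CPM were all at least 1.5-fold higher in Old than in Young. For 9 basophil and mast cell markers the sums were 5.99, 979.8 and 124 CPM, with all 9 higher. Csf2rb, in this list, was at 0.651 CPM in Young, 536 CPM in Old and 44.0 CPM in Old + Fumarate. Macrophage and monocyte markers summed to 4.01, 58.5 and 35.3 CPM (6 of 6 higher), B cell markers to 7.08, 18.6 and 19.2 CPM (3 of 5), plasma cell markers to 118, 164 and 131 CPM (3 of 5) and NK cell markers to 141, 189 and 281 CPM (5 of 7). Single genes held much of these last sums. Xbp1 (plasma cell) was at 110, 122 and 108 CPM, and Ccr2 (macrophage and monocyte) at 0.957, 25.1 and 29.8 CPM. In the NK cell list Klrk1 was at 84.5, 64.2 and 119 CPM, and Klrd1 at 24.5, 39.9 and 71.0 CPM. Klrk1 (−0.39), Eomes (−0.14) and Sdc1 (−0.10) were lower in Old than in Young. Which cells these reads came from was not tested. Below the worth of 3 reads in the Young library were 3 of the erythroid and platelet markers, 2 of the basophil and mast cell markers and 6 of the macrophage markers, with Csf1r and Fcgr1 among these. Csf1r and Fcgr1 came to 0 estimated reads in Young, and Hba-a2, Csf1r, Adgre1 and Klra8 to 0 in Old + Fumarate. T cell identity genes, such as Cd3d, Cd3e and Cd3g, had a median log2 ratio of −0.36 in Old over Young over 19 genes. Of these, 14 were below 0 and 1 at least 1.5-fold lower, against 46.2% and 6.73% of all genes. Above 0 were Lcp2 (0.54), Thy1 (0.39), Cd8b1 (0.07), Cd247 (0.03) and Cd6 (0.01). The 19 genes summed to 5406, 4903 and 5787 CPM, with none of them near the worth of 3 reads in any library. The part of these differences in the replication results was not tested.

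The first comparison, Old against Young, asks how activated T cells of aged mice differ from those of young mice. Of the 38 replication genes 36 had a log2 ratio below 0, against 46.2% of all genes with a mean of at least 1 CPM. At least 1.5-fold lower were 5 of the 38, or 13.2%, against a background of 6.73%, and none was at least 1.5-fold higher, against a background of 16.5%. The median log2 ratio of CPM + 1 was −0.40 (quartiles −0.47 and −0.26), while the median over all genes was 0.03. Counting intervals lay wholly below 0 for 34 members and wholly above 0 for 1. At least 20% lower were 25 of the 38, against a background of 17.7%. The 5 lowest were Lig1, Rfc4, Pcna, Mcm7 and Pold1. When libraries were scaled to the median of the T cell identity list, which raised the median of all genes by 0.34, the replication median was −0.05. With that scaling 0 members were 1.5-fold lower, against a background of 2.7%. Among the 26 members whose exons overlap no other gene, 2 (Pcna and Pold1) were 1.5-fold lower, against the background of 6.73%.

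The comparison of Old + Fumarate with Old asks how cells of treated aged mice differ from those given vehicle. Replication genes were slightly higher with fumarate, by a median log2 ratio of 0.19 against −0.02 over all genes. A ratio above 0 was seen for 32 of 38 members, against 45.8% of all genes. None was at least 1.5-fold higher, against a background of 2.15%, and none at least 1.5-fold lower, against 11.2%. Counting intervals lay above 0 for 27 members and below 0 for 1, and 8 members were at least 25% higher, against a background of 8.18%. The T cell identity list had a median of 0.21 in the same comparison, and after scaling to that list the replication median was −0.01, on the other side of 0. Against the Young library, which asks how far treated aged cells stood from young ones, the Old + Fumarate library had a median of −0.24 with 30 of 38 members below 0, where 49.2% of all genes were. At least 1.5-fold lower was 1 member (Rfc4), against a background of 6.79%, and none was higher, against 10.5%. At least 20% lower were 10 members, against a background of 17.0%. All comparisons share libraries, so their values are given side by side and not as independent results.

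**Figure D2:**
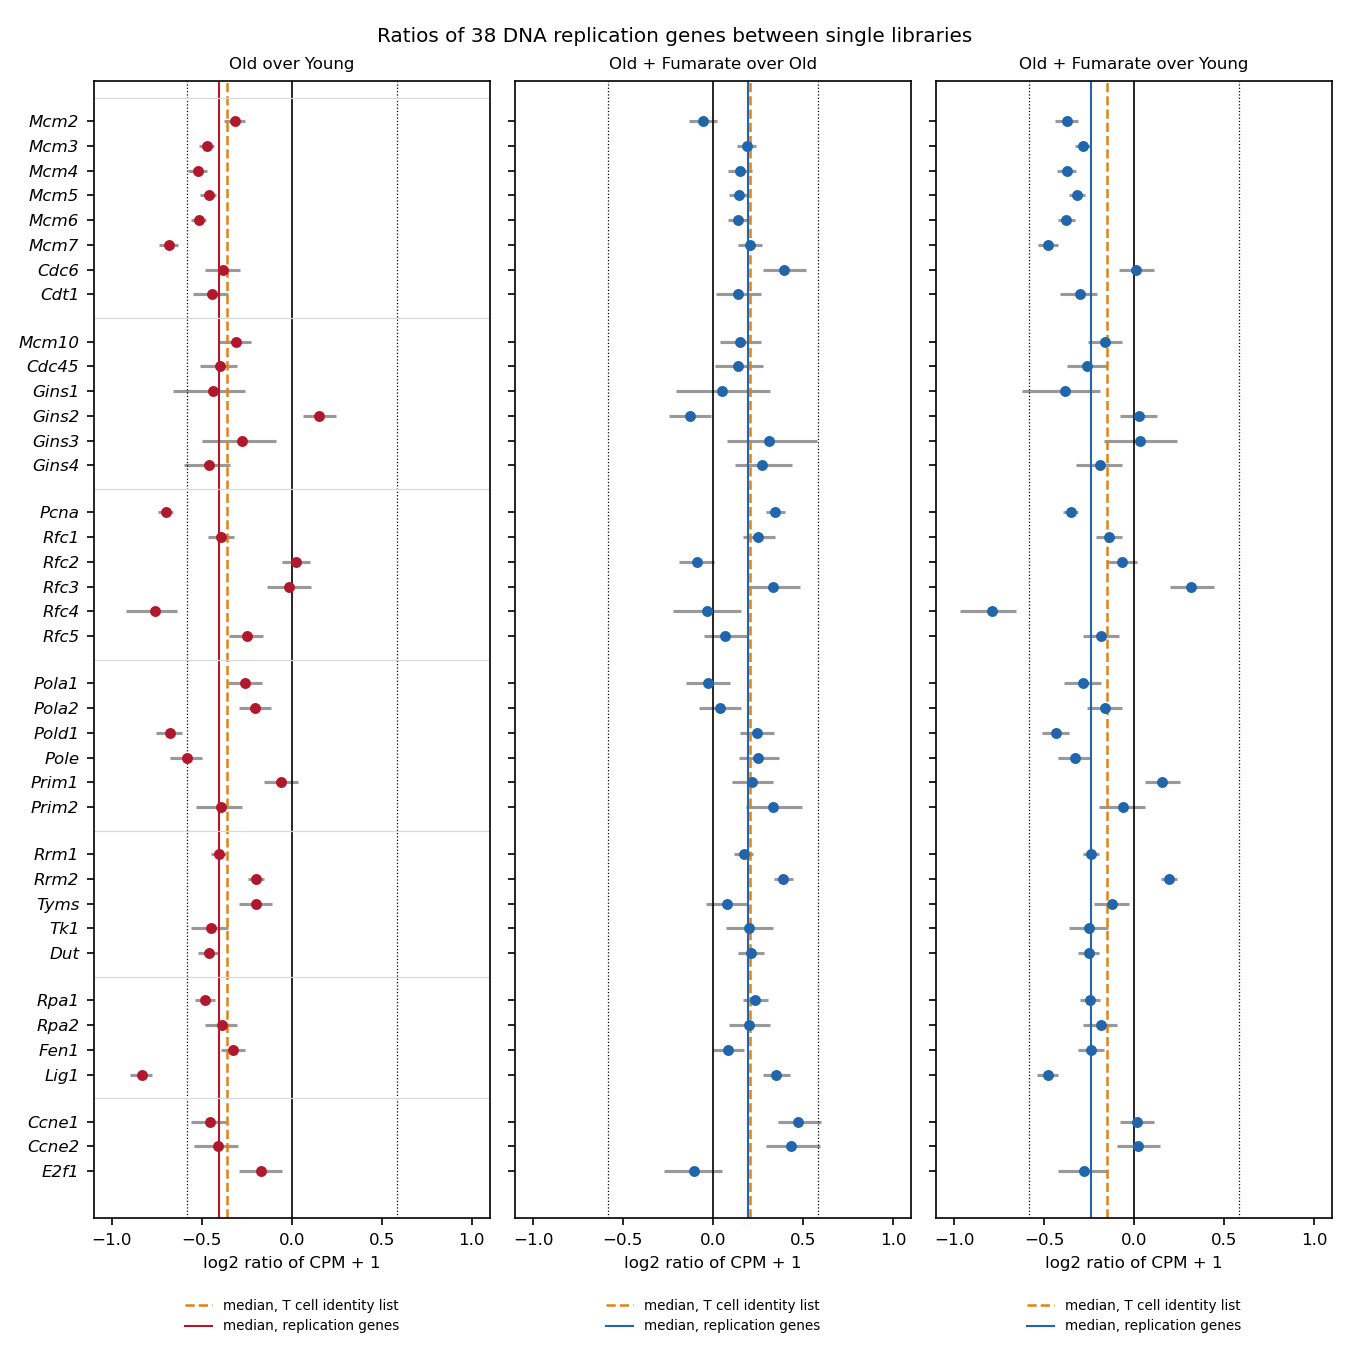
Log2 ratio of CPM + 1 for each replication gene in the 3 comparisons, with 95% counting intervals of the CPM ratio as grey bars, the median of the replication genes as a solid coloured line and that of the T cell identity list as a dashed line. Dotted lines mark 1.5-fold. In Old over Young the medians are −0.40 and −0.36, and in Old + Fumarate over Old 0.19 and 0.21.

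Origin licensing genes had a median log2 ratio of −0.47 in Old over Young, with all 8 below 0 and 1 at least 1.5-fold lower. For this and the role groups below, the shares over all genes were 46.2% below 0, 6.73% lower and 16.5% higher. The groups hold 3 to 8 genes each, so their counts are too small to set roles apart. Mcm7, a subunit of the helicase ring (chromosome 5, 138164583 to 138172422, mm10), was at 339 CPM in Young, 211 CPM in Old and 243 CPM in Old + Fumarate, a log2 ratio of −0.68 for Old over Young (interval −0.74 to −0.63). Its exons overlap those of Ap4m1 and Cops6 on the other strand over 10.8% and 2.16% of its exon length, and Ap4m1 itself was at 17.7, 22.1 and 18.1 CPM and Cops6 at 129, 129 and 124 CPM. The other ring subunits ran from −0.32 to −0.52. Mcm6 was at 446, 312 and 344 CPM. Mcm3 was at 499.7, 359.9 and 410.0 CPM, the highest level per exon length of the ring. Mcm4 was at 327, 227 and 252 CPM and Mcm5 at 421, 306 and 338 CPM. In each of these the Young library was highest and the Old library lowest. Mcm2 departed from that order, at 229.8 CPM in Young, 184 CPM in Old and 177 CPM in Old + Fumarate, with an interval for Old + Fumarate over Old of −0.13 to 0.02. Cdt1 and Cdc6, which load the ring onto origins, were both higher in Old + Fumarate than in Old, by different amounts. The log2 ratios were 0.14 (interval 0.02 to 0.27) for Cdt1 and 0.39 (0.28 to 0.52) for Cdc6. Cdt1 was at 88.4, 64.8 and 71.5 CPM. Cdc6 was at 82.5 CPM in Young and 63.2 CPM in Old, and at 83.3 CPM in Old + Fumarate, a log2 ratio of 0.01 against Young with an interval of −0.08 to 0.11.

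Promoters were searched for letters of the kind that E2F proteins bind. Windows of 250 bases before to 50 bases after the start were taken from RefSeq (GRCm38.p6, the assembly also called mm10) and matched 30 of the 38 genes with 34 windows. Ccne2, Gins1, Gins2, Gins4, Mcm4, Pole, Prim2 and Rfc2 had no entry. The letters TTTGGCGC, TTTCCCGC, TTTCGCGC and TTTGCCGC were searched on both strands, and matches of 2 such strings may overlap where one strand's match runs into the other's. At least 1 match was found for 11 of 30 genes (36.7%), against 704 of 27025 genes with a window (2.61%) and 465 of 9442 genes (4.92%) that also had a mean of at least 1 CPM. Of the 4 genes shown, Mcm7, Mcm6 and Mcm5 had the lowest Old over Young ratios among members with a match before the start, and Rfc3 the highest. Matches are in capitals. For Mcm5 (chr8:75109259-75109508, plus strand) and Mcm6 (chr1:128359706-128359955, minus strand) the 250 bases before the start are printed. For Mcm7 (chr5:138172030-138172059, minus strand) and Rfc3 (chr5:151651200-151651229, minus strand) 30 bases around the match are printed, since annotated exons reach into the rest. Both stretches lie inside the gene span given by GENCODE (138164583 to 138172422 for Mcm7, 151642756 to 151651242 for Rfc3). Before the start thus means before the RefSeq start of the window.
Mcm5: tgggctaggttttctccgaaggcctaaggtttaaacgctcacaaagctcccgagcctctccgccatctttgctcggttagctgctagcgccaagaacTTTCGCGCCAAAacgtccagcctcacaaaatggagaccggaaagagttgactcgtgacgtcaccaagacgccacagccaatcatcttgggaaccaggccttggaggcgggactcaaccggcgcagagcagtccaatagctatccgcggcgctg
Mcm6: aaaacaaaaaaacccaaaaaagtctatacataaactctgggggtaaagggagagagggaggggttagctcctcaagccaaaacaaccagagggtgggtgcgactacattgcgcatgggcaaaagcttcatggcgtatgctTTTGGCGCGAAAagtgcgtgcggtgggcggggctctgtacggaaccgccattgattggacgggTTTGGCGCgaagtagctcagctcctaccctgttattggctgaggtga
Mcm7: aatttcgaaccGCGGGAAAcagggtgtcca
Rfc3: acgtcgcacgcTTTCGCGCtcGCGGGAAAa
In Mcm5 a pair of overlapping matches forms the 12-base run TTTCGCGCCAAA, which starts at position −153 from the start. Mcm6 holds its exact reverse complement, TTTGGCGCGAAA, at −110, with a further match at −47. This 12-base run occurred on either strand in 4 of 32851 windows, those of Mcm5, Mcm6, Msh3 and Mycn. Rfc3 had a match at −10 and another from the first base after the start. Old over Young ratios were −0.68 for Mcm7, −0.52 for Mcm6, −0.46 for Mcm5 and −0.02 for Rfc3. The genes shown were picked by this ratio, so it cannot be set against the layout of their letters.

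Members with and without E2F letters had overlapping ratios. The 11 with a match had a median Old over Young ratio of −0.46 (−0.83 to −0.02), and the 19 with a window but no match one of −0.39 (−0.76 to −0.06). For Old + Fumarate over Old the medians were 0.20 and 0.17. The CHR letters TTTGAA, an element of genes that peak in mitosis, were found for 4 of 30 replication genes (13.3%), 12 of 17 mitosis genes (70.6%), 20.2% of all genes and 14.7% of genes with a mean of at least 1 CPM. CCAAT boxes (letters CCAAT), which the factor NF-Y binds, were found for 17 of 30 replication genes (56.7%), 15 of 17 mitosis genes (88.2%), 41.1% of all genes and 43.3% of genes with a mean of at least 1 CPM. A match describes letters in a window and not a bound site.

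**Figure D3:**
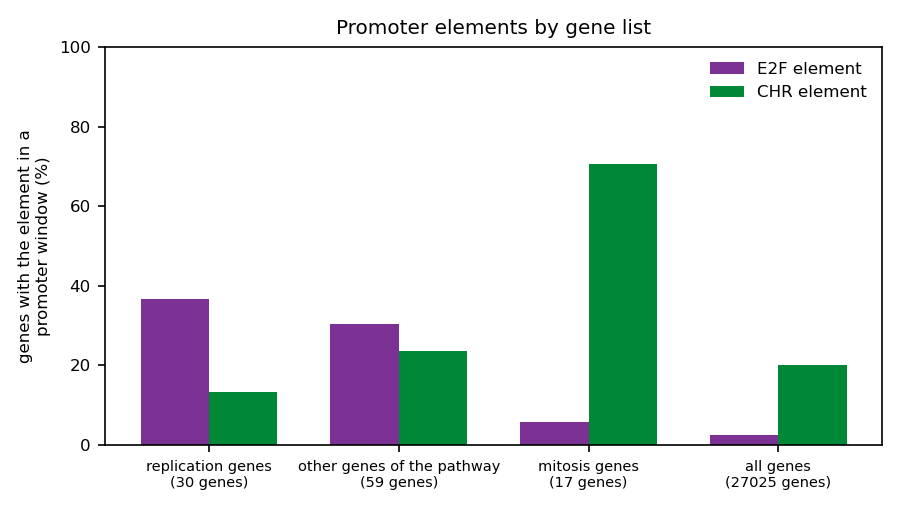
Share of genes, in percent, with E2F letters (left bar) or CHR letters (right bar) in a promoter window, for replication genes, the other genes of the pathway, mitosis genes and all genes with a window. E2F letters stand in 36.7% of replication genes and 2.61% of all genes, and CHR letters in 70.6% of mitosis genes.

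Origin firing genes had a median of −0.36 in Old over Young, with 5 of 6 below 0 and none past 1.5-fold. Cdc45, which joins the ring to form the active helicase, was at 74.5 CPM in Young, 56.2 CPM in Old and 62.1 CPM in Old + Fumarate. Mcm10, which helps start unwinding, was at 94.1, 75.6 and 84.0 CPM. The 4 GINS genes encode subunits of 1 complex, and they did not run together. Gins4 was at 52.6, 37.9 and 46.0 CPM and Gins1 at 21.6, 15.7 and 16.3 CPM. Gins3 was at 19.0, 15.5 and 19.5 CPM. Gins2 was the member with the highest Old over Young ratio, at 74.8 CPM in Young, 83.2 CPM in Old and 76.2 CPM in Old + Fumarate, a log2 ratio of 0.15 (interval 0.06 to 0.25). Over 70.7% of their length the exons of Gins2 lie on exons of Gse1 on the other strand, and the table assigned Gse1 18.8, 64.4 and 26.8 CPM. Without a stated strand setting the reads of those genes cannot be told apart.

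Clamp and clamp loader genes had the widest range of the 7 role groups in Old over Young (−0.76 to 0.02), though not in Old + Fumarate over Old. Pcna, the sliding clamp that holds polymerases on DNA (chromosome 2, 132249162 to 132253314), was at 518 CPM in Young, 318 CPM in Old and 405 CPM in Old + Fumarate. Its log2 ratio was −0.70 for Old over Young (interval −0.75 to −0.66) and 0.35 for Old + Fumarate over Old (0.29 to 0.40), so that each library was apart from the others by more than counting error. A processed pseudogene, Pcna-ps2, was listed at 151, 92.8 and 114 CPM, or 22.6%, 22.6% and 22.04% of the summed reads of both, which may come from the same transcripts. Summed, Pcna and Pcna-ps2 gave ratios of −0.70 and 0.34.

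The loader RFC opens the clamp and places it on DNA. Rfc4 (chromosome 16, 23113943 to 23127737) was at 52.1 CPM in Young, 30.3 CPM in Old and 29.7 CPM in Old + Fumarate, with log2 ratios of −0.76 (interval −0.92 to −0.64) and −0.79 (−0.97 to −0.66) against Young. Both libraries from aged mice were low for this gene and differed from each other by less than counting error (−0.22 to 0.16). Rfc4 overlaps Eif4a2 on the other strand over 13.4% of its exon length, and Eif4a2 was at 241, 259 and 271 CPM. Rfc3 went another way, at 46.3, 45.8 and 57.9 CPM, with Old + Fumarate higher than Young by 0.32 (interval 0.20 to 0.44). Rfc2 was at 112, 114 and 107 CPM, with all 3 intervals reaching across 0. It overlaps Lat2 on the other strand over 19.1% of its exon length, and Lat2 was listed at 0.792, 21.0 and 6.93 CPM. Gins2 and Rfc2 are the only members with a ratio above 0 in Old over Young, and both overlap a gene that was higher in the Old library. Members that were lower in Old also overlap genes with a ratio above 0, namely Mcm7, Cdc45, Rfc4, Rfc5, Pole, Fen1 and Lig1. Of these partners Wsb2, which shares 15.4% of the exon length of Rfc5, had the highest ratio (0.60, at 40.2, 61.3 and 54.6 CPM). The part of these overlaps in their values was not tested. The large subunit Rfc1 was at 161, 123 and 146 CPM and Rfc5 at 88.1, 73.9 and 77.5 CPM.

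Genes of polymerases and primase had a median of −0.33 in Old over Young, with all 6 below 0. Pold1, the catalytic subunit of polymerase delta (chromosome 7, 44532746 to 44548849), was at 176 CPM in Young, 109.7 CPM in Old and 129.9 CPM in Old + Fumarate, a log2 ratio of −0.68 (interval −0.76 to −0.61). Pole, the catalytic subunit of polymerase epsilon, was at 119, 79.2 and 94.6 CPM, with a ratio of −0.58, just inside 1.5-fold. Of the polymerase alpha subunits, Pola1 was at 85.8, 71.5 and 70.2 CPM and Pola2 at 88.6, 76.9 and 79.0 CPM, with ratios of −0.26 and −0.20. Prim1, the catalytic subunit of primase, was at 78.2, 75.1 and 87.3 CPM, with an Old over Young interval of −0.15 to 0.03. Its partner Prim2 was at 50.3, 37.997 and 48.1 CPM, with a ratio of −0.40.

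Nucleotide supply genes had a median of −0.41 in Old over Young and none past 1.5-fold. The subunits of ribonucleotide reductase, which makes deoxyribonucleotides, differed in how far they were lower. Rrm1 was at 446 CPM in Young, 336 CPM in Old and 379 CPM in Old + Fumarate. Rrm2, the subunit whose level follows S phase, was at 356, 310.3 and 407 CPM, with ratios of −0.20 (interval −0.24 to −0.15) for Old over Young and 0.19 (0.15 to 0.24) for Old + Fumarate over Young. The Old + Fumarate library was thus the highest for Rrm2, beyond counting error. Dut, which removes dUTP, was at 260.2, 189 and 218 CPM. Tk1, the thymidine kinase of dividing cells, was at 78.7, 57.4 and 66.0 CPM. Tyms, which makes thymidylate, was at 86.3, 75.01 and 79.1 CPM, and a pseudogene of it (Tyms-ps) was listed at 2.78, 2.32 and 3.15 CPM.

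Genes of single strand binding and Okazaki fragment joining had a median of −0.43 in Old over Young, with all 4 below 0. Lig1, the DNA ligase that seals Okazaki fragments (chromosome 7, 13277283 to 13311433), had the lowest ratio of all members. It was at 287 CPM in Young, 161 CPM in Old and 206 CPM in Old + Fumarate, with log2 ratios of −0.83 (interval −0.90 to −0.78) for Old over Young, 0.35 (0.28 to 0.43) for Old + Fumarate over Old and −0.48 (−0.54 to −0.42) for Old + Fumarate over Young. Its exons overlap those of Zswim9 on the other strand over 6.17% of their length, and Zswim9 was at 5.42, 6.55 and 5.05 CPM. Fen1, the nuclease that trims the fragments before joining, differed less, at 167, 133 and 141 CPM. It shares 78.8% of its exon length with Gm10143 on the other strand, listed at 3.73, 5.15 and 4.43 CPM. The single strand binding proteins were at intermediate ratios, with Rpa1 at 282, 202 and 238 CPM and Rpa2 at 99.8, 76.1 and 87.6 CPM.

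By median, the G1/S regulators were the group in which Old + Fumarate lay closest to Young (0.02 against Young). With 3 genes the group is too small to set its role apart. Ccne1, cyclin E1, was at 86.1 CPM in Young, 62.5 CPM in Old and 87.2 CPM in Old + Fumarate, and its ratio of 0.47 (interval 0.36 to 0.60) was the highest of all members for Old + Fumarate over Old. Ccne2, cyclin E2, was at 54.0, 40.3 and 54.9 CPM, with a ratio of 0.43 in that comparison. E2f1, an activating E2F factor, did not follow the cyclins. It was at 49.2 CPM in Young, 43.6 CPM in Old and 40.4 CPM in Old + Fumarate, with an interval of −0.27 to 0.05 for Old + Fumarate over Old. Its ratio for Old + Fumarate over Young was −0.28 (interval −0.42 to −0.15).

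**Figure D4:**
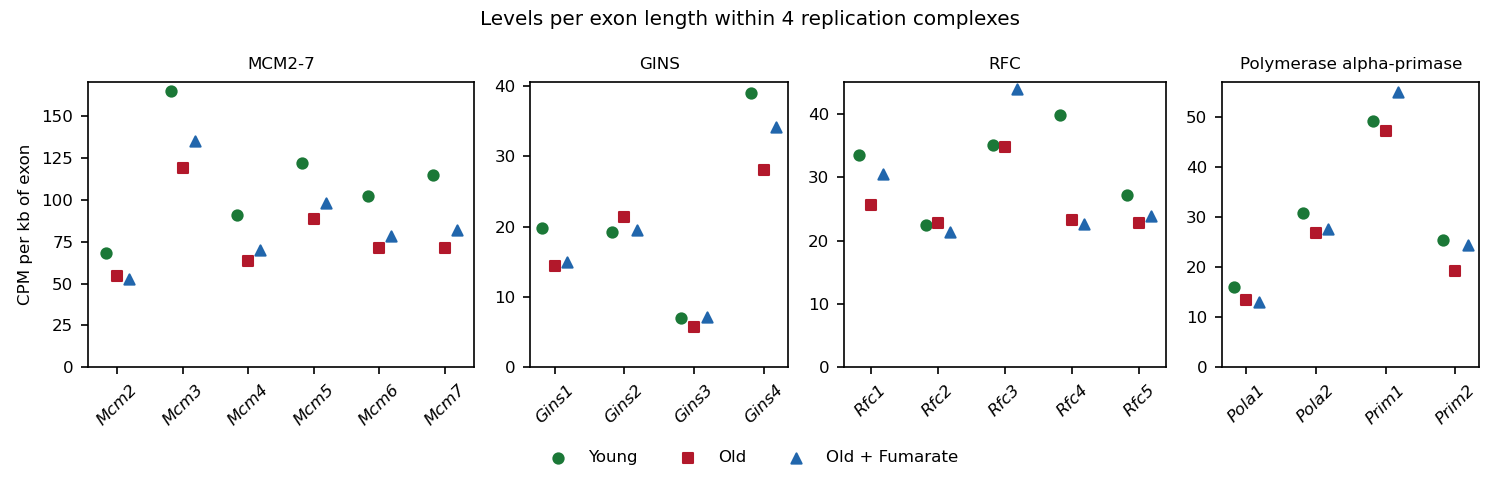
Level per kb of exon (CPM divided by the summed length of all annotated exons) for the subunits of 4 complexes, with 1 point per library. Mcm3 is the highest and Mcm2 the lowest of the MCM ring in all 3 libraries, and Rfc4 is the highest RFC subunit in Young but not in Old or Old + Fumarate.

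To set subunits of a complex beside each other, levels were taken per kb of exon. Within the MCM ring, levels in Young ran from 68.2 CPM per kb (Mcm2) to 165 CPM per kb (Mcm3). In Old they ran from 54.6 to 119 and in Old + Fumarate from 52.6 to 135 CPM per kb. The order of the 6 genes was the same in all 3 libraries (Mcm3, Mcm5, Mcm7, Mcm6, Mcm4, Mcm2), although Mcm6 and Mcm7 lay close together in Old. In RFC the order changed: Rfc4 was the highest in Young at 39.8 CPM per kb, and Rfc3 the highest in Old at 34.7 and in Old + Fumarate at 44.0 CPM per kb. In the polymerase alpha and primase complex Prim1 was the highest throughout, at 49.2, 47.2 and 54.9 CPM per kb, and Pola1 the lowest, at 16.0, 13.4 and 13.1 CPM per kb. Among GINS genes Gins4 was the highest, at 39.0, 28.1 and 34.1 CPM per kb, and Gins3 the lowest, at 7.02, 5.73 and 7.19 CPM per kb. Exon length from an annotation need not be the length of the transcripts made in these cells.

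Other genes of the pathway were taken from a list of 73 in 6 groups. In Old over Young 7 of 73 were at least 1.5-fold lower and 5 higher, with 56 below 0 and a median of −0.24. Over all genes 6.73% were lower, 16.5% higher and 46.2% below 0, so the share of lower calls was near the background. Firing kinases and factors (median −0.39, 7 of 7 below 0) and genes of chromatin behind the fork (median −0.37, 8 of 8 below 0) were closest to the members. Nasp, a histone chaperone, had the lowest ratio, at 284 CPM in Young, 156 CPM in Old and 201 CPM in Old + Fumarate (−0.86, interval −0.92 to −0.80). Timeless, a fork protection factor, was at 110.0, 62.2 and 74.2 CPM, and Dscc1, part of an alternative clamp loader, at 12.8, 7.18 and 10.2 CPM. Origin recognition and licensing control genes differed less (median −0.11). One of them, Gmnn, encodes geminin, the inhibitor of Cdt1, and was 1.5-fold lower in Old at 77.1, 47.6 and 56.0 CPM, as were Samhd1, Mtbp and E2f2.

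G1/S control genes went both ways, with a median of 0.02 in Old over Young, 5 of 21 at least 1.5-fold higher and 1 lower. These values lie near those of all genes (median 0.03, 16.5% higher and 6.73% lower). All 5 higher genes of the pathway list were in this group. Ccnd1, cyclin D1, was at 1.07 CPM in Young, 11.3 CPM in Old and 4.75 CPM in Old + Fumarate. Rbl2, the retinoblastoma relative p130, was at 45.4, 120.5 and 126 CPM, with ratios of 1.39 for Old over Young (interval 1.32 to 1.498) and 1.45 for Old + Fumarate over Young (1.38 to 1.57). It was high in both libraries from aged mice. E2f7 and E2f8, E2F proteins that repress E2F targets, were highest in the Old library. E2f8 was at 40.5, 74.8 and 44.0 CPM, and E2f7 at 10.5, 21.1 and 16.0 CPM. Cdk6, a kinase partner of D cyclins, was at 178, 286 and 277 CPM. For Old + Fumarate over Old, 2 of the 73 were 1.5-fold lower (Ccnd1, −1.09, and E2f8, −0.75) and none higher, against 11.2% and 2.15% of all genes, and E2f6 had the next lowest ratio (−0.44). The highest were Dscc1 (0.46), E2f5 (0.42, at 8.66, 9.33 and 12.8 CPM) and Rrm2b (0.41, at 24.8, 19.2 and 25.8 CPM). For Old + Fumarate over Young the lowest were Samhd1 (−0.60), an enzyme that breaks down deoxyribonucleotides, Timeless (−0.56) and Asf1a (−0.54), and the highest Ccnd1 (1.47), Rbl2 and Cdk6 (0.64). Ccnd1 was at 1.07 CPM in Young, so the added 1 CPM made its ratio smaller. The interval of its CPM ratio without that constant was 1.58 to 2.73.

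Mitosis genes, a list of 20, differed by about as much as replication genes. Their median was −0.35 in Old over Young, with all 20 below 0 (46.2% of all genes) and 4 at least 1.5-fold lower (6.73% of all genes), and 0.17 in Old + Fumarate over Old. The summed CPM of replication genes over that of mitosis genes was 1.91 in Young, 1.84 in Old and 1.84 in Old + Fumarate. Set against the T cell identity list instead, the sum was 1.22 in Young, 0.990 in Old and 0.961 in Old + Fumarate. By the sum of levels, replication genes were thus lower relative to T cell identity genes in both libraries from aged mice than in Young, whereas the medians of log2 ratios lay close together (−0.40 and −0.36 in Old over Young). The identity sum holds Thy1, the gene with the most CPM in that list in all 3 libraries, at 752, 988 and 1453 CPM. Thy1 was singled out after its values were seen, and its part in the ratio of sums was not tested.

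**Figure D5:**
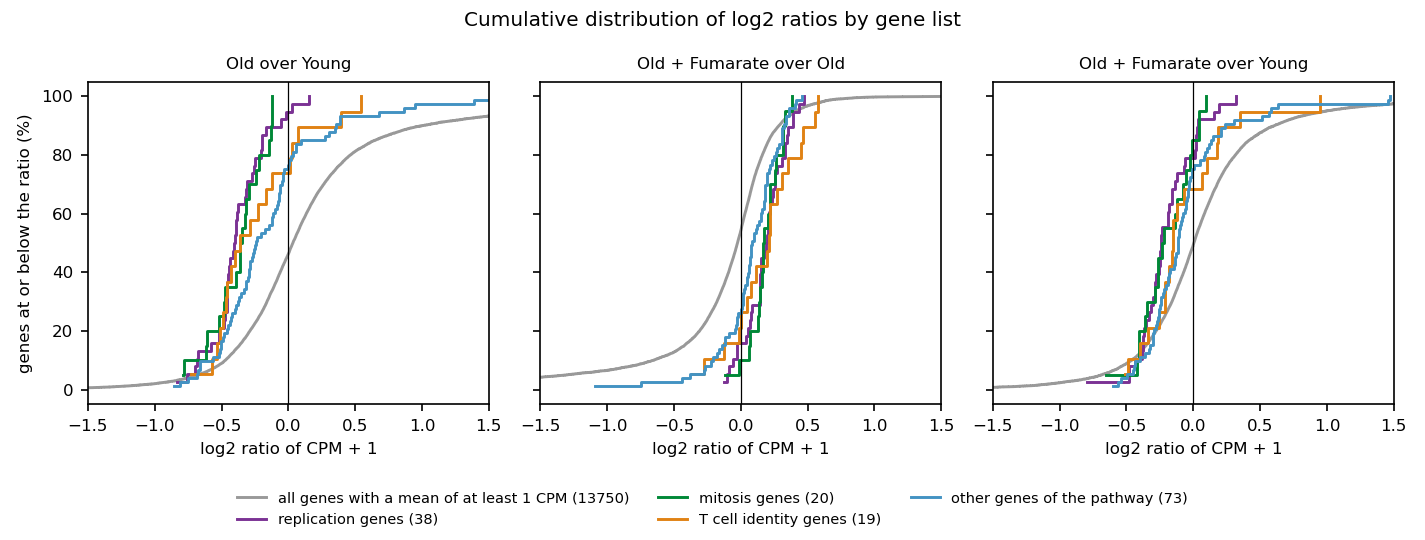
Cumulative share of genes, in percent, at or below each log2 ratio of CPM + 1, for all genes with a mean of at least 1 CPM and 4 lists, in the 3 comparisons. Curves of replication, mitosis and T cell identity genes lie left of all genes in Old over Young (medians −0.40, −0.35, −0.36 and 0.03) and right of them in Old + Fumarate over Old (0.19, 0.17, 0.21 and −0.02).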

How the data were processed

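One RNA-seq library per group was compared, each of polyadenylated RNA from cultured spleen T cells. The authors deposited 1 table of 17796 genes, named as raw counts, but each column sums to 1000000, so the values were read as CPM. STAR, Partek and mm10 are named in the submitters' processing notes, without versions or settings; no strand setting, and no rule for reads that match several genes, is stated there. Depth was estimated from the steps between low CPM values; with these depths 57.8%, 65.5% and 67.6% of values in Young, Old and Old + Fumarate lay within 0.02 of a whole read, so whole reads were not recovered and no count model was run.

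Log2 ratios were taken of CPM + 1. A gene was counted as higher or lower at 1.5-fold or more, among genes with a mean of at least 1 CPM. Intervals are 95% exact (Clopper-Pearson) intervals of the CPM ratio from estimated reads, without the added 1; they cover counting error only, and PCR copies are not independent molecules. Exons came from GENCODE M21 and promoter windows from RefSeq (GRCm38.p6). All 38 members are described by role; of the other pathway genes, the 3 highest and 3 lowest ratios per comparison are named, and further genes past 1.5-fold were named after their values were seen. Promoters are printed for the 3 lowest and the highest Old over Young ratio among members with E2F letters before the RefSeq start. Members and lists were chosen with earlier results of these data known. Scripts were tested on simulated data and run in Python (version 3.11.15). Tables were handled in pandas (2.3.3) and numpy (2.4.6), intervals came from scipy (1.17.1), and plots were drawn in matplotlib (3.10.9). Alternatives covered the scaling, the added constant, the minimum level and the fold limit; summing Pcna with Pcna-ps2, leaving out members that overlap another gene and taking a total without receptor segments for the summed share were chosen after seeing the data.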

Additional observations from a re-analysis of the deposited data

How the results depend on the processing

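No paired analysis was possible because each group had 1 library, and for the same reason no library could be left out. Scaling by TMM, median of ratios or upper quartile, a total without pseudogenes, ribosomal protein, mitochondrial and receptor segment genes, and added constants of 0.1 or 5 CPM kept the sign of the median in all 3 comparisons. Upper-quartile scaling gave −0.50 for Old over Young, with 8 of 38 members 1.5-fold lower, against a background of 9.22%. Scaling to the T cell identity list shifted the median of all genes by 0.34, −0.20 and 0.14. Replication medians were then −0.0451 for Old over Young and −0.0145 for Old + Fumarate over Old (the other side of 0). For Old + Fumarate over Young the median was −0.0904. In Old over Young 0 members were lower with this scaling, against a background of 2.7%. The cause was not tested beyond that shift. At a limit of 2-fold, 0 members were lower in Old over Young and 0 in Old + Fumarate over Young, against backgrounds of 2.01% and 2.35%. With the limit at 20% lower or 25% higher, 25 were lower in Old over Young, 8 higher in Old + Fumarate over Old and 10 lower in Old + Fumarate over Young. Backgrounds at that limit were 17.7%, 8.18% and 17.0%. Among the 26 members that overlap no other gene, 2 were 1.5-fold lower in Old over Young and 0 in Old + Fumarate over Young. Backgrounds were 6.73% and 6.79%. The summed share was 0.675%, 0.494% and 0.567% in Young, Old and Old + Fumarate with Pcna-ps2 included, and 0.794%, 0.568% and 0.653% of the total without the genes named above. Depth limits members near 20 CPM most, such as Gins1 and Gins3, and the spread between mice was not measured.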
